A study of Homo sapiens with 6 samples.

Results

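The genes examined here encode enzymes and regulators of cholesterol synthesis. They are 8 genes fixed by name, HMGCS1, IDI1, FDFT1, SQLE, LSS, SC5DL, INSIG1 and SREBF2, out of 23204 gene symbols in the deposited tables. For a symbol with several rows, the row with the highest mean over the 6 libraries was kept. The symbol SC5DL is the older name of SC5D. None of the 8 encodes a lipoprotein receptor, so cholesterol uptake is not covered by these members.

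Cells make cholesterol from acetyl-CoA through mevalonate, isoprenoid pyrophosphates, squalene and lanosterol. When sterols in the membrane of the endoplasmic reticulum are low, the transcription factor SREBP2 is carried to the Golgi by its escort SCAP, is released by proteolysis and raises transcription of most enzymes of the pathway. When sterols are abundant, INSIG proteins hold SCAP and SREBP2 in the endoplasmic reticulum, and INSIG1 is itself a target of SREBP2, so its mRNA is widely used as a readout of the pathway. HMGCS1 makes HMG-CoA, IDI1 isomerises isopentenyl pyrophosphate, and FDFT1 is squalene synthase. SQLE is squalene epoxidase, LSS forms lanosterol, and SC5DL is a sterol desaturase that acts late in the pathway. SREBF2 encodes SREBP2.

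RNA-seq was performed on HEK293T, an immortalised human line derived from embryonic kidney, in 6 libraries of 1 per group. In the siRNA arm, cells were treated with control siRNA or DDX3X siRNA for 48 h, and no sorting is described. The plasmid arm was transfected with 5 µg of DNA for GFP alone, GFP-WT DDX3X, GFP-DDX3X T275M or GFP-DDX3X G302V, kept for 32 h and sorted for GFP by flow cytometry. DDX3X is a DEAD-box RNA helicase, and the mutants are associated with medulloblastoma. Plasmid cells were transiently transfected and still carry their own DDX3X. A plot legend in the study gives another mutant in place of T275M, and the sample labels were followed here.

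Every group held 1 library, so no test of a condition was possible and no p-value is given. Values are RPKM, reads scaled for the length of the row and the total reads of the library. A difference is a log2 ratio of RPKM + 1, and its bracketed range is the exact 95% counting interval from the reads of both libraries. That interval covers counting error only and not the variation between cultures. Here "higher" or "lower" beyond counting error means that the interval leaves out 0, and a gene was called changed at 1.5-fold or more. Fewer cells that express a gene and less of its mRNA per cell cannot be told apart in these bulk libraries.

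Depth ranged from 43720000 reads in G302V to 180870000 in DDX3X siRNA, which was 2.68 times as deep as its control. DDX3X mRNA was at 107 RPKM with control siRNA and 31.3 with DDX3X siRNA, and at 119 with GFP, 2894 with WT, 3279 with T275M and 1906 with G302V. The labels also call the cells neuronal. Of 12 neuronal markers, 4 to 6 reached 1 RPKM in a library. MAP2, STMN2, DCX and ELAVL3 were at 0.0860 RPKM or lower in each library, whereas the neurofilament genes NEFM (514 to 683 RPKM) and NEFL (109 to 140 RPKM) were abundant. TUBB3 (5.60 to 9.28 RPKM) and SYP (2.74 to 5.59 RPKM) were also above 1 RPKM in each library. SNAP25 passed 1 RPKM only with WT (1.38) and T275M (1.22), and GAP43 only with WT (1.05). Of 10 embryonic kidney markers, 6 or 7 reached 1 RPKM, and PAX2, PAX8 and OSR1 were below 1 RPKM in each library. The summed level of the neuronal markers, nearly all from NEFM and NEFL, was 835 RPKM with GFP, 639 with WT, 668 with T275M and 767 with G302V, against 649 with control siRNA and 757 with DDX3X siRNA, and its part in the results was not tested.

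SREBP2 binds short promoter elements, and these are shown because they are the sites that a shared regulator of the members could use. RefSeq promoters (GRCh38.p14, 250 bases before to 50 after the gene start) were found for 6 of the 8 members and not for FDFT1 and SQLE. Both strands were searched for the sterol regulatory element TCACNCCAC, where N is any base, for the E-box CACGTG, which SREBP proteins can also bind, and for CCAAT, bound by the SREBP partner NF-Y. The sterol regulatory element was in 1 of the 6 members, SREBF2, and in 1.13% of 35116 promoters. The E-box was in 3 of 6, INSIG1, LSS and SC5DL, and in 7.26% of promoters. CCAAT was in all 6 and in 34.6% of promoters. A member was counted if any of its promoters had a match, whereas the shares are of single promoters, so the units differ. HMGCS1, IDI1 and SC5DL had matches at more than 1 gene start. A match is a description of letters and not evidence of binding. Sites with other letters or outside the window are missed, so the lack of a match does not show that a site is absent. The capitals below mark the sterol regulatory element of SREBF2 and the E-boxes of INSIG1 and SC5DL that lie upstream of the gene start, on the plus strand at chr22:41832962-41832990, chr7:155297812-155297840 and chr11:121292629-121292657.
SREBF2: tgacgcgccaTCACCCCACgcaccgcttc
INSIG1: ccgggcaggctCACGTGatgcgggccccg
SC5DL: cgcgcggcgccCACGTGaccgcggagagc

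All 8 genes were well expressed in HEK293T cells and passed the filter in every comparison. Their levels stayed within a narrow band, the highest library being between 1.30 times (SQLE) and 1.69 times (INSIG1) the lowest. SQLE and FDFT1, which act on either side of squalene, were the most abundant per length, with ranges of 103 to 134 RPKM and 91.4 to 121 RPKM. SREBF2, INSIG1 and IDI1 formed a middle group, followed by HMGCS1, LSS and SC5DL, which was lowest at 10.6 to 14.8 RPKM. When neighbours in the order of RPKM were compared within each library, 40 of 42 pairs differed beyond counting error. The pairs that did not were IDI1 and INSIG1 with WT and FDFT1 and SQLE with G302V. Between 2755 and 70310 reads lay behind each value.

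**Figure D1:**
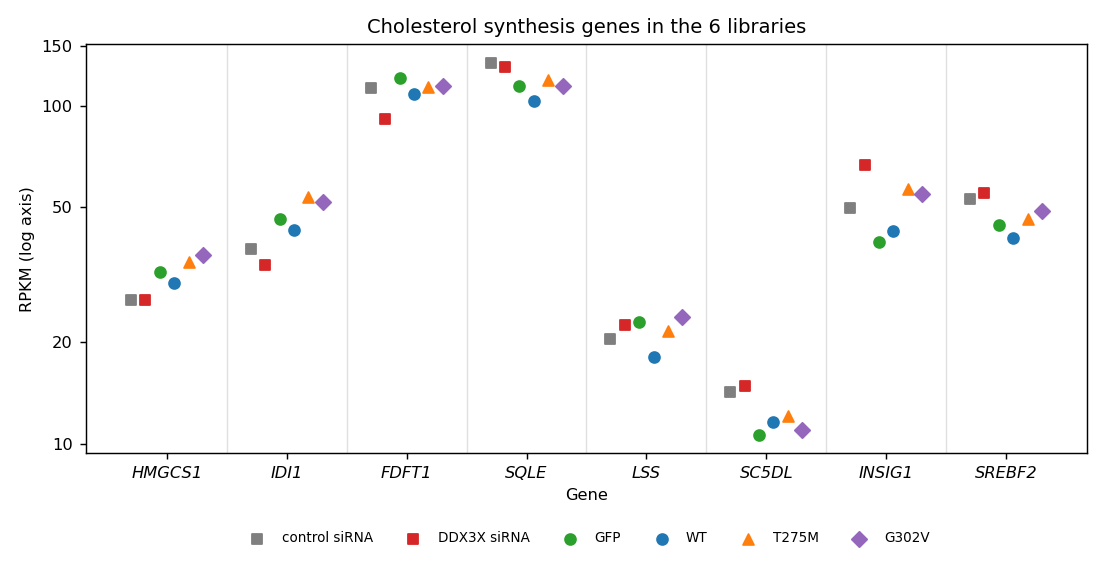
RPKM of the 8 genes (vertical log axis) in the 6 libraries, 1 point per library with no error bar, coloured by group and placed side by side within each gene. HMGCS1 and IDI1 lie lower in both siRNA libraries than in the 4 plasmid libraries, and SQLE, SC5DL and SREBF2 lie higher there.

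To ask whether depletion of DDX3X altered the pathway, DDX3X siRNA was compared with control siRNA. No member passed 1.5-fold, against 2% of 12694 genes. The median log2 ratio of the 8 members was 0.03, beside -0.02 for all genes compared. Beyond counting error, 4 members were higher (32.8% of all genes were) and 3 were lower (40.1% of all genes were). The members did not move as a block, since the largest difference upward was in the sterol sensor INSIG1 and the largest downward in the enzyme FDFT1.

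INSIG1 was at 66.8 RPKM with DDX3X siRNA (36389 reads) and 49.9 RPKM with control siRNA (10137 reads). Its log2 ratio was 0.42 (0.38 to 0.45), 134% of the control level, and 3.73% of genes had a higher ratio. The 3 INSIG1 rows, which differ in length, gave ratios of 0.42 to 0.43. FDFT1 was at 91.4 RPKM against 112.5 in the control, the lowest value of the 6 libraries, with a log2 ratio of -0.30 (-0.32 to -0.27). IDI1 was also at its lowest, at 33.7 RPKM against 37.6, with a ratio of -0.15 (-0.20 to -0.11). Both of these enzymes of isoprenoid and squalene synthesis were lower, but 26.7% of genes had a lower ratio than IDI1 and 9.41% a lower one than FDFT1.

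The other members had ratios of -0.04 to 0.13. LSS read 22.4 RPKM beside 20.4 in the control (0.13, interval 0.08 to 0.18), and 24.7% of genes had a higher ratio. SREBF2 was at 55.3 RPKM against 52.9 (0.06, interval 0.04 to 0.09), and SC5DL at 14.8 RPKM against 14.2 (0.05, interval 0.01 to 0.09). HMGCS1, the earliest enzyme among the members, was the 1 gene whose interval held 0, with 26.7 and 26.6 RPKM and a ratio of 0.00 (-0.04 to 0.04). Under median-ratio scaling, SREBF2, SC5DL and HMGCS1 were at 0.11, 0.10 and 0.05. SQLE was at 130.1 RPKM against 134.2, a ratio of -0.04 (-0.06 to -0.02) that turned to 0.0062 with that scaling.

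**Figure D2:**
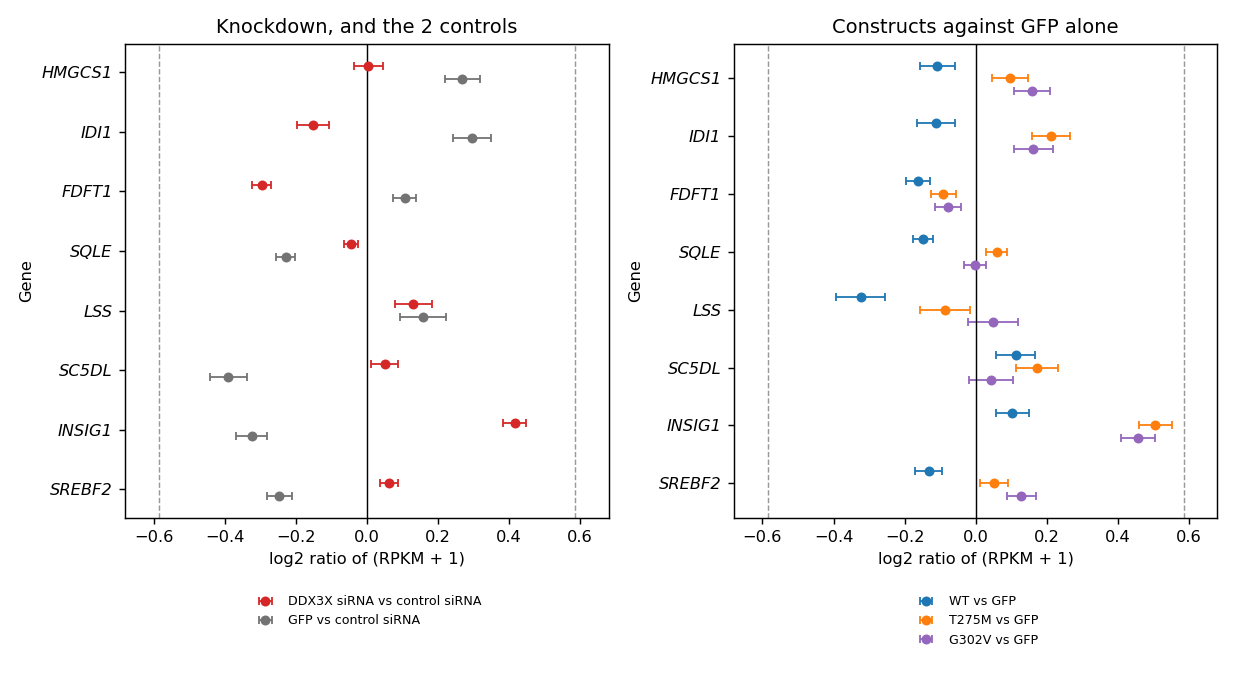
Log2 ratios of RPKM + 1 (horizontal axis) for the 8 genes, with bars for the 95% counting interval; the solid line marks 0 and the dashed lines mark 1.5-fold. The left panel shows DDX3X siRNA and GFP against control siRNA, and the right panel shows the 3 constructs against GFP; no point passes a dashed line, and INSIG1 is the rightmost gene with DDX3X siRNA, T275M and G302V.

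The constructs were then compared with GFP alone, a library that all 3 comparisons share. With WT DDX3X most members were lower. Their median log2 ratio was -0.12, whereas the median of all 12915 genes was 0.05, and 6 of 8 were lower beyond counting error and 2 higher, beside 21.3% and 41.1% of all genes. The 6 lower members were HMGCS1, IDI1, FDFT1, SQLE, LSS and SREBF2. The same number of ratios, 6, was below 0 under median-ratio scaling, where the median was -0.1814. No member passed 1.5-fold, as against 2.21% of genes.

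LSS, the enzyme that closes the sterol rings, showed the largest difference with WT. WT cells had 18.1 RPKM and GFP cells 22.9, for a ratio of -0.32 (-0.39 to -0.26), and 1.47% of genes had a lower ratio. Its 4 rows gave -0.34 to -0.32. FDFT1 was at 108 RPKM against 121 (-0.16, interval -0.20 to -0.13) and SQLE at 103 against 114 (-0.15, interval -0.18 to -0.12). SREBF2 was at 40.5 RPKM against 44.5, a ratio of -0.13 (-0.17 to -0.09). HMGCS1 (29.8 against 32.2 RPKM) and IDI1 (42.8 against 46.3 RPKM) were both at -0.11. The late enzyme SC5DL and the sensor INSIG1 went the other way. SC5DL was at 11.6 RPKM against 10.6 (0.11, interval 0.06 to 0.17) and INSIG1 at 42.6 against 39.6 (0.10, interval 0.06 to 0.15). Median-ratio scaling brought them to 0.06 and 0.04, and HMGCS1 and IDI1 each to -0.17.

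With T275M, 6 members were higher than with GFP beyond counting error and 2 were lower, beside 44.2% and 23.4% of all 12912 genes. The median of the members was 0.08, near the median of 0.07 for all genes. INSIG1 stood apart, at 56.7 RPKM (8110 reads) against 39.6 with GFP (6544 reads). Its log2 ratio was 0.50 (0.46 to 0.55), a level 42.9% higher, and 3.65% of genes had a higher ratio. IDI1 was at 53.8 RPKM against 46.3, a ratio of 0.21 (0.16 to 0.27), and SC5DL at 12.1 against 10.6 (0.17, interval 0.11 to 0.23). These are an isomerase of the isoprenoid step and a late sterol enzyme, and 25.3% and 31.4% of genes had a higher ratio. HMGCS1 was at 0.10 (0.04 to 0.15), and at 0.04 with median-ratio scaling. SQLE at 0.06 and SREBF2 at 0.05 were higher as deposited but turned to -0.0009 and -0.0080 under median-ratio scaling. FDFT1 and LSS were each at -0.09, and at -0.15 and -0.14 with that scaling. The 4 LSS rows gave -0.16 to -0.09, and their sum gave -0.15. No member passed 1.5-fold, beside 2.64% of genes.

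With G302V, 4 members were higher than with GFP and 1 was lower, beside 35.1% and 26.3% of all 12775 genes, and no member passed 1.5-fold, beside 1.77% of genes. The median of the members was 0.09 and that of all genes 0.03. INSIG1 again had the largest ratio, at 54.7 RPKM against 39.6, or 0.46 (0.41 to 0.50), and 2.77% of genes had a higher one. IDI1 and HMGCS1, early enzymes of the pathway, were each at 0.16, with 51.9 and 36.1 RPKM against 46.3 and 32.2. For them 25.6% and 26.1% of genes had a higher ratio. SREBF2 was at 48.7 RPKM against 44.5 (0.13, interval 0.09 to 0.17). FDFT1 was the lower member, at -0.08 (-0.11 to -0.04). SQLE, LSS and SC5DL had intervals that held 0, and the 4 LSS rows lay on both sides of it (-0.01 to 0.05).

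A direct comparison of the mutants with WT, all expressed as GFP fusions, gave the most even direction among the members. With T275M all 8 members were higher than with WT beyond counting error, whereas 24% of 12973 genes were higher and 20.5% lower. The median log2 ratio of the members was 0.21 and that of all genes 0.00. With G302V 7 of 8 were higher and 1 lower, beside 26.2% and 35.8% of 12967 genes, and the median was 0.26, against -0.03 for all genes. SC5DL was the exception, at 11.0 RPKM with G302V against 11.6 with WT (-0.07, interval -0.13 to -0.01), and at -0.03 with median-ratio scaling. Under median-ratio scaling 8 and 7 ratios were again above 0. No member passed 1.5-fold in either comparison, beside 0.347% and 1.76% of genes. The WT library is shared by both comparisons. The members were also chosen with earlier results of these data known, so their counts are a description and not a test.

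INSIG1 had the largest ratio of T275M to WT, at 0.40 (0.36 to 0.45), followed by IDI1 at 0.32 (0.27 to 0.38). Only 0.447% of genes had a higher ratio than INSIG1 and 0.987% a higher one than IDI1. LSS was at 0.24 (0.17 to 0.31), SQLE at 0.21 (0.18 to 0.24), HMGCS1 at 0.20 (0.15 to 0.25) and SREBF2 at 0.18 (0.14 to 0.22). FDFT1 at 0.07 (0.04 to 0.11) and SC5DL at 0.06 (0.00 to 0.11) differed least. In G302V the leading gene was LSS, at 23.7 RPKM against 18.1 and a ratio of 0.37 (0.30 to 0.44), and its 4 rows gave 0.33 to 0.37. INSIG1 followed at 0.35 (0.31 to 0.40). IDI1 and HMGCS1 were each at 0.27 and SREBF2 at 0.26 (0.22 to 0.30). SQLE was at 0.15 (0.12 to 0.18) and FDFT1 at 0.08 (0.05 to 0.12).

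**Figure D3:**
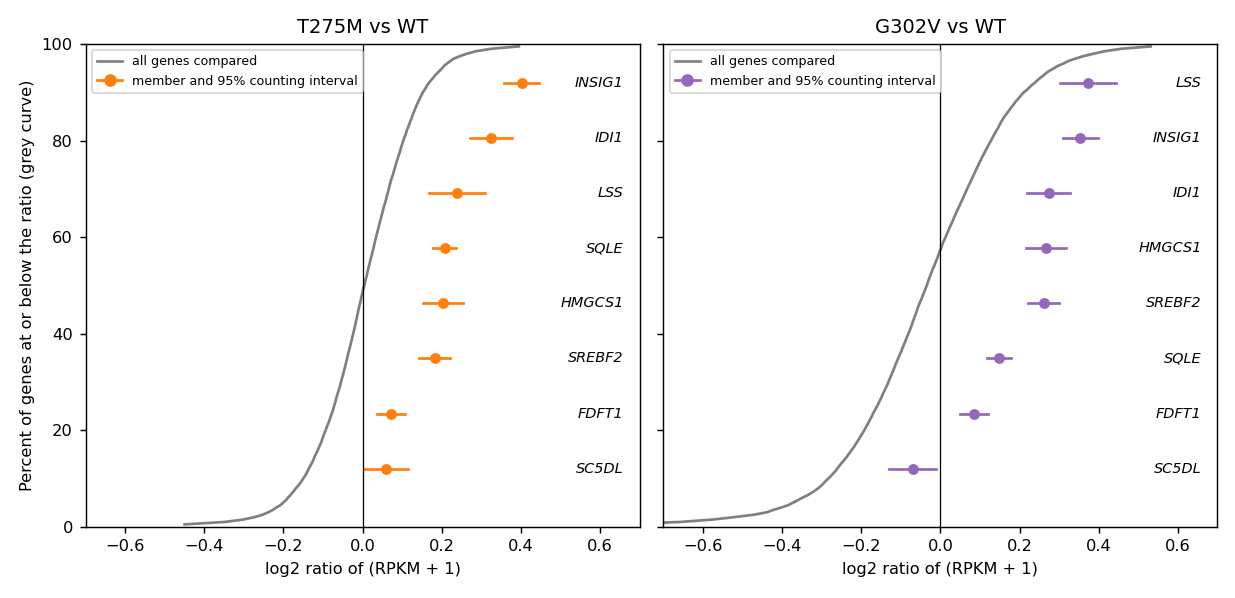
Log2 ratios of T275M (left) and G302V (right) to WT on the horizontal axis. Points with bars are the 8 genes and their 95% counting intervals, stacked by rank with no meaning in their height; the grey curve is the cumulative percent of all genes compared. All 8 points lie above 0 with T275M and 7 with G302V.

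The level of the construct differed too, and its part in these differences was not tested. DDX3X itself was higher with T275M than with WT (log2 ratio 0.18, interval 0.18 to 0.18) and lower with G302V than with WT (-0.60, interval -0.61 to -0.60). Among the 4 plasmid libraries, WT had the lowest value for 6 of 8 members, beside 15.3% of 13137 genes. Both mutant libraries were above WT for 7 members (32.3% of genes) and above both GFP and WT for 4 members, HMGCS1, IDI1, INSIG1 and SREBF2, beside 23.8% of genes. These counts rest on the same WT library as the ratios to WT above, so they are not separate support. INSIG1 separated the libraries most clearly, with 39.6 and 42.6 RPKM in GFP and WT against 56.7 and 54.7 in the mutants.

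Compared with each other, the mutants differed little. The median ratio of G302V to T275M was -0.02, against -0.03 for all 12925 genes, and turned to 0.02 under median-ratio scaling, with 3 members higher, 3 lower and 2 not distinguishable by counting (19.7% and 31.5% of all genes were higher and lower). No member passed 1.5-fold, beside 1.2% of genes. The widest differences were LSS at 0.14 (0.06 to 0.21) and SC5DL at -0.13 (-0.19 to -0.07). INSIG1 was lower by counting with G302V, at 54.7 RPKM against 56.7, a change of -3.39%, and its log2 ratio of -0.05 shrank to -0.0092 with that scaling. SQLE went from -0.06 to -0.02, and HMGCS1 and SREBF2 from 0.06 and 0.08 to 0.10 and 0.12.

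The control libraries of the arms also differed in these genes, by amounts like those above. GFP cells were transfected with plasmid for 32 h and sorted, and control siRNA cells were treated for 48 h with no sorting described, so these factors cannot be told apart. With GFP, IDI1 was at 46.3 RPKM against 37.6 with control siRNA (0.29, interval 0.24 to 0.35) and HMGCS1 at 32.2 against 26.6 (0.27, interval 0.22 to 0.32). These were the higher genes, together with LSS and FDFT1. SC5DL was at 10.6 RPKM against 14.2 (-0.39, interval -0.44 to -0.34), INSIG1 at 39.6 against 49.9 (-0.32), SREBF2 at 44.5 against 52.9 (-0.25) and SQLE at 114 against 134 (-0.23). The members thus divided evenly, 4 higher and 4 lower, beside 33.2% and 31.3% of 12730 genes. No member passed 1.5-fold, beside 2.33% of genes.

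Across all libraries, 5 of 8 members had values in the siRNA arm that did not overlap those of the plasmid arm, beside 37.1% of 13137 genes. SQLE, SC5DL and SREBF2 were above all plasmid libraries in both siRNA libraries (14.5% of genes), and HMGCS1 and IDI1 were below them in both (22.6%). The latter count, 2 of 8, was near the share of all genes. The pairs named next are of genes in this split, so their r restates it and is not separate support. Over the 6 libraries, which fall into these arms, Pearson's r of log2(RPKM + 1) was 0.97 for HMGCS1 and IDI1 and 0.93 for SQLE and SREBF2, whereas it was -0.82 for HMGCS1 and SC5DL. Of 28 pairs, 15 had a positive r and 13 a negative r, so the 8 genes did not share 1 profile.

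The genes whose profile was most like the mean of the members were also listed, from 4185 genes with a mean of 10 RPKM or more and a log2 range of 0.3 or more. They were CYFIP2 (r = 0.94), a subunit of the WAVE actin regulator, RAB32 (0.93), a small GTPase, CHD8 (0.92), a chromatin remodeller, MYO1D (0.91), an unconventional myosin, and BNIP3 (0.86), a mitochondrial receptor of autophagy. Each r rests on 6 libraries and was picked as among the highest of 4185 genes. The mean profile of the members spans only 0.21 on the log2 scale. As the members did not share 1 profile, likeness to their mean is a description only. CYFIP2, for instance, was at 12.2 RPKM with WT and 17.6 with G302V.

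To place the members in their pathway, 6 lists of other sterol and lipid genes were examined. They hold 55 genes, of which 51 passed the filter, and none passed 1.5-fold in any of the 8 comparisons. For the mutants against WT, the counts below stand beside 24% of all genes higher and 20.5% lower for T275M (median 0.00), and 26.2% higher and 35.8% lower for G302V (median -0.03). No test compared the lists. The 6 other enzymes of the mevalonate steps had a median of -0.05 for T275M and -0.14 for G302V against WT, with 1 higher and 3 lower for T275M and 1 higher and 4 lower for G302V. The 10 other enzymes after squalene had medians of -0.0011 and -0.0020, with 2 higher and 2 lower for T275M and 4 higher and 3 lower for G302V, whose median turned to 0.04 under median-ratio scaling. Of 8 genes of SREBP processing and sterol sensing, 2 were higher and 2 lower for T275M (median 0.01), and 2 were higher and 1 lower for G302V (median 0.02, or 0.06 with that scaling). Of the 4 genes of the oxysterol receptor LXR that passed, 1 was higher and none lower for T275M (median 0.08), and none was higher and 3 were lower for G302V (median -0.23). Among the 51 genes together, 20 were higher and 7 lower for T275M, and 25 were higher and 11 lower for G302V.

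Genes of fatty acid synthesis, many of them targets of the related factor SREBP1, were measured beside them. Of 11, 8 were higher and none lower for T275M against WT (median 0.10), and 9 were higher and none lower for G302V (median 0.21). Against GFP the counts were different. WT had 1 higher and 6 lower, beside 41.1% and 21.3% of all genes. T275M had 3 higher and 5 lower (median 0.03, all genes 0.07), beside 44.2% and 23.4%. G302V had 8 higher and 1 lower (median 0.11, all genes 0.03), beside 35.1% and 26.3%. SCD, the stearoyl-CoA desaturase, was at 125 RPKM with WT, 156 with T275M and 181 with G302V, log2 ratios of 0.32 (0.30 to 0.34) and 0.53 (0.51 to 0.55). ACACA, acetyl-CoA carboxylase, was at 17.4 RPKM with G302V against 11.9 (0.51), and FASN, fatty acid synthase, at 145 against 103 (0.48). As with the members, WT had values below GFP for SCD (125 against 170 RPKM, -0.43). In T275M against WT, STARD4, a sterol carrier, was at 0.29 and MSMO1, a sterol oxidase, at 0.27. Of 12 genes of sterol transport and esterification, 6 were higher and none lower for T275M, and 9 were higher and none lower for G302V (medians 0.06 and 0.13).

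Between the mutants, FASN (0.42) and ACACA (0.39) were higher with G302V than with T275M, and MYLIP, a ligase that degrades lipoprotein receptors, was lower at -0.41. MYLIP was higher than with GFP in T275M (0.56) and WT (0.40). INSIG2, the paralog of INSIG1, was at 5.89 RPKM with GFP, 8.84 with WT and 8.74 with T275M, log2 ratios of 0.51 and 0.50. T275M and WT differed for INSIG2 by -0.02 (-0.12 to 0.09), whereas INSIG1 was at 0.40 in that comparison. VLDLR, a lipoprotein receptor, was at 0.47 for T275M against GFP. For G302V against GFP FADS1, a fatty acid desaturase, was at 0.51 and MSMO1 at 0.36.

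With DDX3X siRNA, 32.8% of all genes were higher and 40.1% lower. In that comparison 5 of the 6 other mevalonate enzymes were lower and 1 was higher, with a median of -0.22 (all genes -0.02). That direction was seen for IDI1 and FDFT1 but not for HMGCS1, at 0.00 (-0.04 to 0.04). After squalene, 7 of 10 enzymes were higher and 3 lower (median 0.08), and of 8 genes of SREBP processing and sterol sensing 6 were higher and none lower (median 0.20). SCARB1, a receptor for high-density lipoprotein, was at 79.0 RPKM with DDX3X siRNA and 53.5 in the control, with a ratio of 0.55 (0.52 to 0.58), the largest of the 51. ABCG1, a sterol exporter of low level here, was at 0.897 RPKM against 1.71 (-0.51), and LRP8, another lipoprotein receptor, at 5.59 against 3.76 (0.47). Of the 12 genes of sterol transport and esterification, which include SCARB1 and LRP8, 6 were higher and 4 lower (median 0.07). Between GFP and control siRNA, MSMO1 (-0.58), the lysosomal lipase LIPA (-0.50) and FASN (0.46) differed most.

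**Figure D4:**
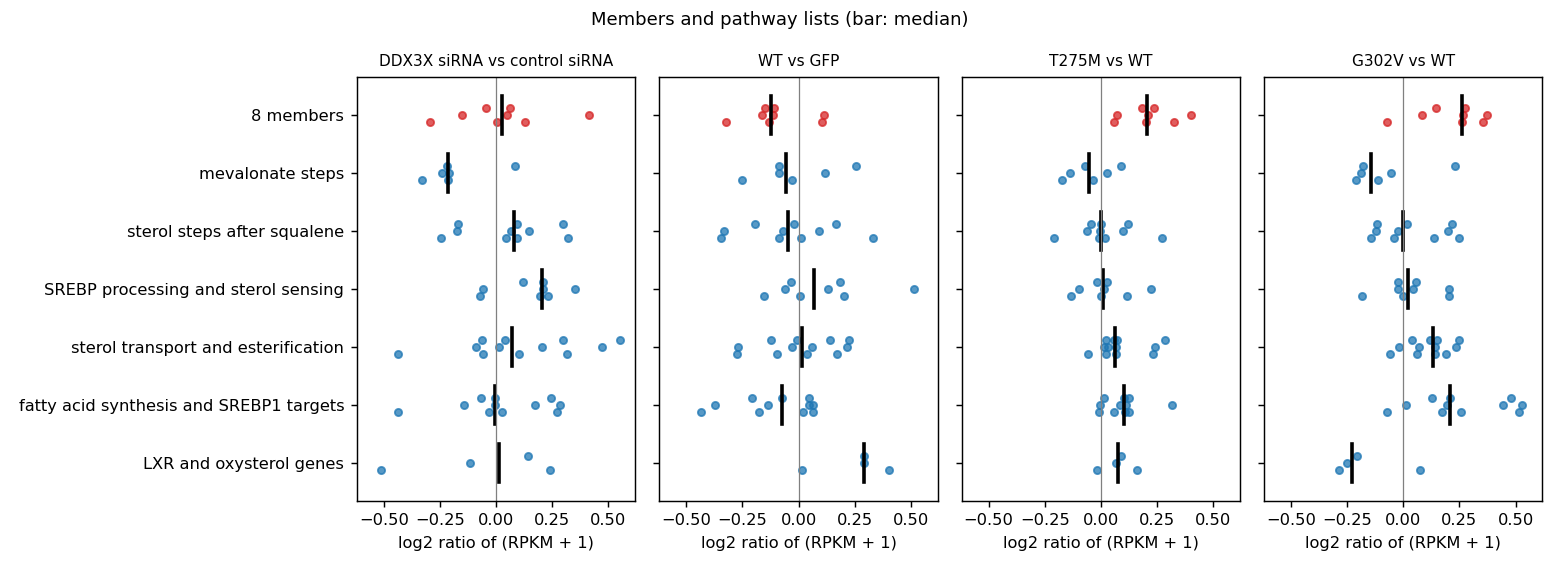
Log2 ratios of RPKM + 1 (horizontal axis) for the 8 members (red) and for the genes of 6 pathway lists that passed the filter (blue), 1 point per gene, with a black bar at each median, in 4 comparisons. The members lie above 0 for T275M against WT (8 of 8) and for G302V against WT (7 of 8), whereas the mevalonate list has medians of -0.05 and -0.14.

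The genes lie on 7 chromosomes of GRCh37, the build of the tables. HMGCS1 is on chromosome 5 (43287572 to 43313614, minus strand) and IDI1 on chromosome 10 (1085092 to 1095059, minus strand). FDFT1 (11653082 to 11696904) and SQLE (126010739 to 126034525) are far apart on the plus strand of chromosome 8. LSS is on chromosome 21 (47608055 to 47648738, minus strand), SC5DL on chromosome 11 (121163390 to 121184119, plus strand), INSIG1 on chromosome 7 (155089486 to 155101945, plus strand) and SREBF2 on chromosome 22 (42229109 to 42303310, plus strand). The rows used are 2106 (FDFT1) to 6946 bases (SC5DL) long. Exons of HMGCS1, IDI1, LSS and SREBF2 overlap antisense genes in GENCODE, and the library kit does not keep strand, so reads of both cannot be told apart. FDFT1, SQLE, SC5DL and INSIG1 have no such overlap.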

How the data were processed

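Per the file headers, the deposited values are RPKM, 1 table per library with 39618 rows. Per the study's methods and the submitters' processing notes, the authors trimmed adapters with cutadapt, aligned reads with BWA 0.5.5 to NCBI Build 37 (hg19), RefSeq, exon junctions and AceView, removed duplicates, counted reads per gene and divided by length and total reads, which the methods call FPKM. Rows of 1 gene share reads, and how reads of near-identical copies were divided is not given in the sources used here.

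RPKM multiplied by length fell on whole multiples of 1 step per library (100% of 11334 to 14010 rows within 0.1), which gave reads and depths. A count model was not used, with 1 library per group. Log2 ratios used a pseudocount of 1, which understates changes of low genes. A gene entered a comparison at 1 RPKM and 10 reads in at least 1 library. Intervals are exact Clopper-Pearson intervals of read shares, for counting error only. The floor of 3 reads is 0.0166 to 0.0686 CPM.

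The members and lists were chosen with earlier results of these data known. Named genes were the members, DDX3X, the 3 list genes with the largest ratio per comparison (none passed 1.5-fold; 1 of these genes is not reported here) and the 5 most alike in profile. Gene positions come from GENCODE version 44 mapped to GRCh37. Alternatives were median-ratio scaling, CPM, a filter at 10 RPKM, a filter at 1 read, pseudocounts of 0.1 and 10, the sum of rows per symbol, and other call rules. Ratios and intervals were tested on simulated data. Python 3.11.15, numpy 2.4.6, pandas 2.3.3, scipy 1.17.1 and matplotlib 3.10.9 were used.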

Additional observations from a re-analysis of the deposited data

How the results depend on the processing

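The count of members past 1.5-fold was 0 in all 8 comparisons under each alternative run. Median-ratio scaling moved the median of the members from 0.03 to 0.0754 for DDX3X siRNA against control siRNA, from -0.12 to -0.1814 for WT and from 0.08 to 0.0180 for T275M against GFP, in the direction of the shift of all genes, which was at most 0.05 in size. A pseudocount of 10 gave a median of 0.2139 for G302V against WT, against 0.26. The other medians stayed between the medians of the members' interval bounds. Of 64 ratios of single members, scaling moved 25 out of their interval and turned 3 in sign, all near 0 and given with their genes above. A pseudocount of 10 moved 15, the sum of rows moved 1, and CPM, a pseudocount of 0.1 and both filters moved none. No library was left out, since each stands alone in its group. No paired analysis was possible because a group is a single library and no test was made. Depth limits the members little, since each has 2755 reads or more.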
